A study of Glycine max with 6 samples.

Results

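The binding sites of the soybean protein GLYMA.06G314400 in early maturation embryos are described here. A site was a peak of replicate 1 that overlapped a peak of replicate 2 by at least 50% of the shorter of both. By this rule 48968 of the 60812 replicate 1 peaks (80.5%) were sites, out of 213988 peaks in the 4 lists of the study. The rule used the position and extent of peaks in both replicates, so the recurrence of the sites is a description and carries no test.

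The study mapped GLYMA.06G314400 and GLYMA.13G317000 by chromatin immunoprecipitation with sequencing (ChIP-seq) in embryos of Glycine max cultivar Williams 82, dissected from seeds of 6 to 7 mm. The groups were GLYMA.06G314400 ChIP, GLYMA.13G317000 ChIP and input, with 2 biological replicates each, 6 samples in all. The labels name no treatment and no transgene in any group. The GLYMA.06G314400 antibody was raised against a peptide of residues 302 to 316 of the protein itself, and the labels name no tag. Input is sheared chromatin that was set aside before precipitation. The labels do not say how many plants or embryos went into a replicate, and no sample lacking the protein was used here, so signal that the antibody draws from other proteins cannot be told apart from binding of GLYMA.06G314400.

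In ChIP-seq, proteins are fixed to DNA with formaldehyde, the chromatin is sheared, and an antibody recovers the fragments that carry the protein. Reads from both ends of such fragments pile up around the point of contact, and a peak caller marks the stretch where the pile exceeds the background, with its highest point as the summit. The summit therefore locates the contact more closely than the edges do, and a wide peak can hold several contacts whose piles run together. Early maturation is the phase of seed development in which the embryo starts to lay down storage protein and oil. Soybean chromosomes carry most genes towards their ends, while the middle parts are rich in repeats. No gene name or protein family for GLYMA.06G314400 is given in the sources used here, and the genes and DNA sequences at the sites were not analysed here.

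Nearly all strong peaks recurred, and the peaks that did not recur were weak and narrow. The fold enrichment, the authors' ratio of the pile at the summit to the local background, had a median of 7.39 in replicate 1 (quartiles 4.80 and 13.3) and of 7.66 in replicate 2 (quartiles 5.05 and 14.0) over the sites. The highest site reached 48.4 in replicate 1, and the highest partner peak reached 82.3 in replicate 2. The 11844 replicate 1 peaks that were not sites had a median fold enrichment of 3.37 and a highest value of 9.73. Among 10 groups of nearly equal size of replicate 1 peaks ordered by fold enrichment, 31.5% of the weakest group, 43.8% of the second and 60.4% of the third were sites. The share reached 92.4% in the fifth group, whose fold enrichments ran from 4.93 to 5.96, and 100% in the ninth and the tenth. The same order held from the side of replicate 2, in which 50541 of 53281 peaks (94.9%) were matched. There the share was 76.0% in the weakest of 10 groups and 100% in the strongest 4.

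The overlap limit decided few cases. Of the replicate 1 peaks, 11797 touched no replicate 2 peak and 47 touched one below the limit. In 73.9% of sites the shorter peak lay wholly within the longer, and 39 sites had an overlap under 60% of the shorter. Just inside the limit, a site on chromosome 4 from 2351209 to 2351704 overlapped its partner by 50.1%, with fold enrichments of 3.54 and 4.08 in replicates 1 and 2. A site on chromosome 2 from 12295886 to 12296165 overlapped by 50.2%, with 3.03 and 3.20. Just outside it, a peak on chromosome 16 from 1017584 to 1018065 overlapped by 49.8%, with 3.23 and 5.82, and a peak on chromosome 7 from 18478142 to 18478407 by 49.2%, with 2.71 and 16.7. The peaks named here on both sides of the limit were thus weak in replicate 1.

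Most sites were narrower than 1000 bp, and they were wider in replicate 1 than in replicate 2. The median width was 577 bp in replicate 1 (quartiles 443 and 785 bp) and 451 bp in the partner peaks of replicate 2 (quartiles 349 and 613 bp). The replicate 1 peak was the wider in 44397 sites (90.7%), with a median ratio of replicate 2 to replicate 1 width of 0.812, and in 71.1% of sites the replicate 2 peak lay wholly inside it. Despite this offset the order of widths was alike in both, with a Spearman rho of 0.834 across the 48968 sites, which are not independent and whose peaks were matched by overlap. Widths of at least 1000 bp were found for 10.8% of sites in replicate 1 and 3.81% in replicate 2, and widths of at least 2000 bp for 232 and 38 sites. The narrowest peaks measured 266 bp in replicate 1 and 241 bp in replicate 2, and 820 and 1201 peaks of the full lists had exactly these widths. Sheared fragments measured 100 to 500 bp, per the labels. Replicate 1 peaks that were not sites had a median width of 335 bp.

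**Figure D1:**
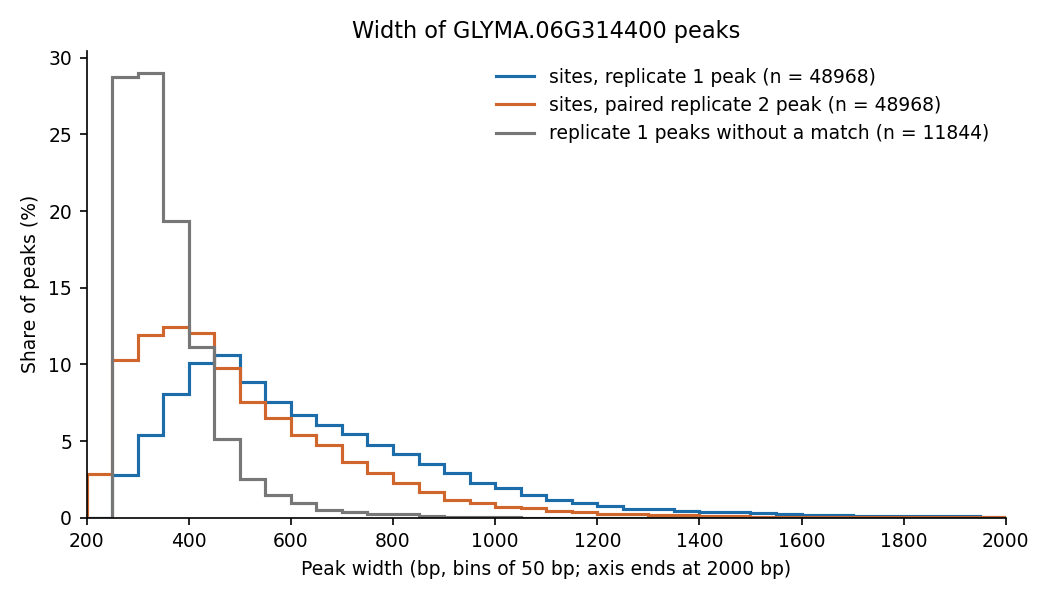
Share of peaks (%) against peak width (bp) for the 48968 sites in replicate 1, their partner peaks in replicate 2 and the 11844 replicate 1 peaks without a match, in bins of 50 bp; the axis ends at 2000 bp. The unmatched peaks gather at the narrow end (median 335 bp), and the replicate 1 widths (median 577 bp) lie to the right of the replicate 2 widths (median 451 bp).

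Stronger sites were wider. In the weakest of 10 groups of sites ordered by replicate 1 fold enrichment, the median width was 350 bp in replicate 1 and 301 bp in replicate 2. In the fifth group it was 518 and 415 bp, and in the strongest 964 and 782 bp. Across sites the Spearman rho of fold enrichment with width was 0.790 in replicate 1 and 0.808 in replicate 2. Width and fold enrichment of a site come from the same pile of reads, so this relation only describes the peaks.

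The widest sites were regions in which several replicate 2 peaks stood side by side. The site on chromosome 8 from 2703023 to 2707232 was the widest, at 4210 bp, and was also strong, with a fold enrichment of 38.6 in replicate 1. In replicate 2 it held a peak of 2720 bp with a fold enrichment of 61.6, whose summit lay 15 bp from that of replicate 1, and a second of 1313 bp with 10.8. The site on chromosome 2 from 2798489 to 2802541 measured 4053 bp, with a fold enrichment of 20.9. It held 3 replicate 2 peaks with fold enrichments of 18.7, 5.94 and 4.28. The site on chromosome 20 from 36893834 to 36897788 measured 3955 bp, with a fold enrichment of 22.9, and held 3 replicate 2 peaks with 14.3, 4.85 and 27.1. Its highest point was at the same base in both replicates, 85.2% of the way along the site.

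In the other two of the 5 widest sites the paired summits of the replicates lay far apart. On chromosome 10 from 40646901 to 40650674, over 3774 bp, replicate 1 had a fold enrichment of 22.8 with its summit at 14.0% of the width. Replicate 2 held peaks of 698, 2158 and 317 bp there, with fold enrichments of 25.7, 19.3 and 5.39. The widest of them, the partner by overlap, had its summit 2200 bp from that of replicate 1, while the summit of the strongest, at 40647420, lay close to the replicate 1 summit at 40647428. On chromosome 6 from 21482474 to 21486185, over 3712 bp, replicate 1 had 16.7 and replicate 2 held 4 peaks with 12.5, 16.2, 6.36 and 17.6. The summit of the last lay 1792 bp from that of replicate 1 at 21484032, and the summit of the second, at 21484010, lay close to it.

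Such composite sites made up a small part of the whole. A single replicate 2 peak was matched to 47421 sites, 2 peaks to 1484, 3 peaks to 57 and 4 peaks to 6, so that 1547 sites (3.16%) spanned 2 or more. The reverse, a replicate 2 peak matched to 2 sites, occurred 43 times. The composite sites had a median width of 1346 bp, against 566 bp for the others, and a median replicate 1 fold enrichment of 12.6, against 7.27. A composite site has to reach over several separate replicate 2 peaks, so part of its greater width follows from its definition. Neighbouring replicate 2 summits inside a composite site lay a median of 699 bp apart (quartiles 577 and 855 bp). A site in this count is therefore not always a single peak in replicate 2. Whether such sites hold several points of contact was not tested.

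Summits lay near the middle of the peaks and at nearly the same place in both replicates. The summit stood at a median of 49.8% of the width from the left edge in replicate 1 (quartiles 44.2 and 55.4%) and of 49.7% in replicate 2 (quartiles 43.9 and 55.4%). It fell in the central 20% of the peak in 72.0% of sites in replicate 1 and 71.0% in replicate 2. The median distance of the summit from the centre was 30 bp in replicate 1 and 25 bp in replicate 2. Peaks reached as far to the left as to the right: the left edge lay a median of 268 bp from the summit and the right edge 271 bp in replicate 1, and 219 and 222 bp in replicate 2.

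The summits of both replicates lay a median of 20 bp apart (quartiles 9 and 39 bp), within 50 bp in 82.5% of sites and within 100 bp in 94.8%. In 775 sites they were at the same base. The replicate 2 summit was to the right in 23985 sites and to the left in 24208, with a median shift of 0 bp. The rule kept only overlapping peaks, and most summits lay near the peak centre. Summit distance and shift are therefore limited by the rule, and their small size is a description. Agreement was closer at strong sites. The median distance was 35 bp in the weakest of the 10 groups, 23 bp in the fifth and 12 bp in the strongest, and the share within 50 bp rose from 63.7% to 95.6%.

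**Figure D2:**
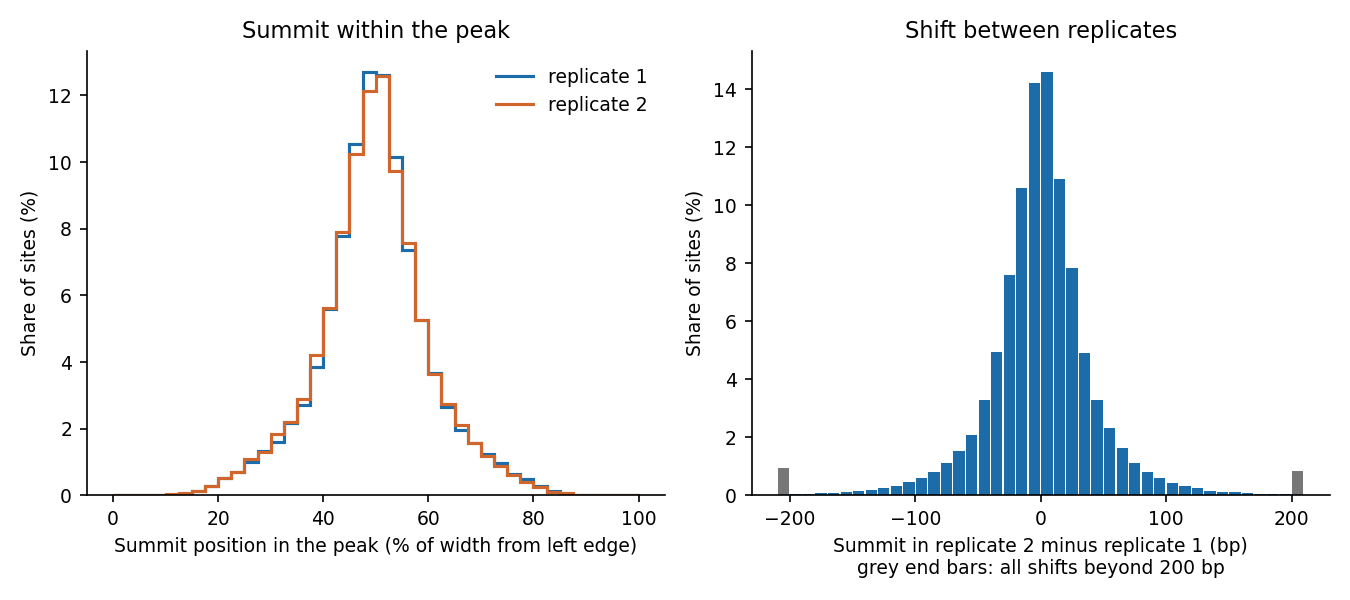
Left, summit position in the peak (% of width from the left edge) against the share of the 48968 sites (%) in replicates 1 and 2, in bins of 2.5%. Right, summit position in replicate 2 minus that in replicate 1 (bp) against the share of sites (%), in bins of 10 bp, with shifts beyond 200 bp gathered in the grey end bars. Both curves on the left peak near the middle (medians 49.8 and 49.7%), and the shifts are centred on 0 bp.

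A small set of sites had summits far apart or far from the centre. Summits lay over 200 bp apart in 882 sites (1.80%), of which 591 were matched to a single replicate 2 peak and 291 were composite. These were 1.25% of the sites with a single replicate 2 peak and 18.8% of the composite sites. In 246 of the 882, another replicate 2 summit within the same site lay within 50 bp of the replicate 1 summit, although the partner by overlap was another peak. The replicate 1 summit fell in the outer 25% at either side of the peak in 1612 sites (3.29%). These sites had a median width of 1090.5 bp, against 568 bp for the rest, and 40.5% of them were composite, against 1.89%. Though wider, they had somewhat lower fold enrichments than the rest, with medians of 7.10 against 7.40 in replicate 1 and of 6.95 against 7.69 in replicate 2. The lower quartiles were 4.21 against 4.81 in replicate 1 and 4.65 against 5.08 in replicate 2.

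**Figure D3:**
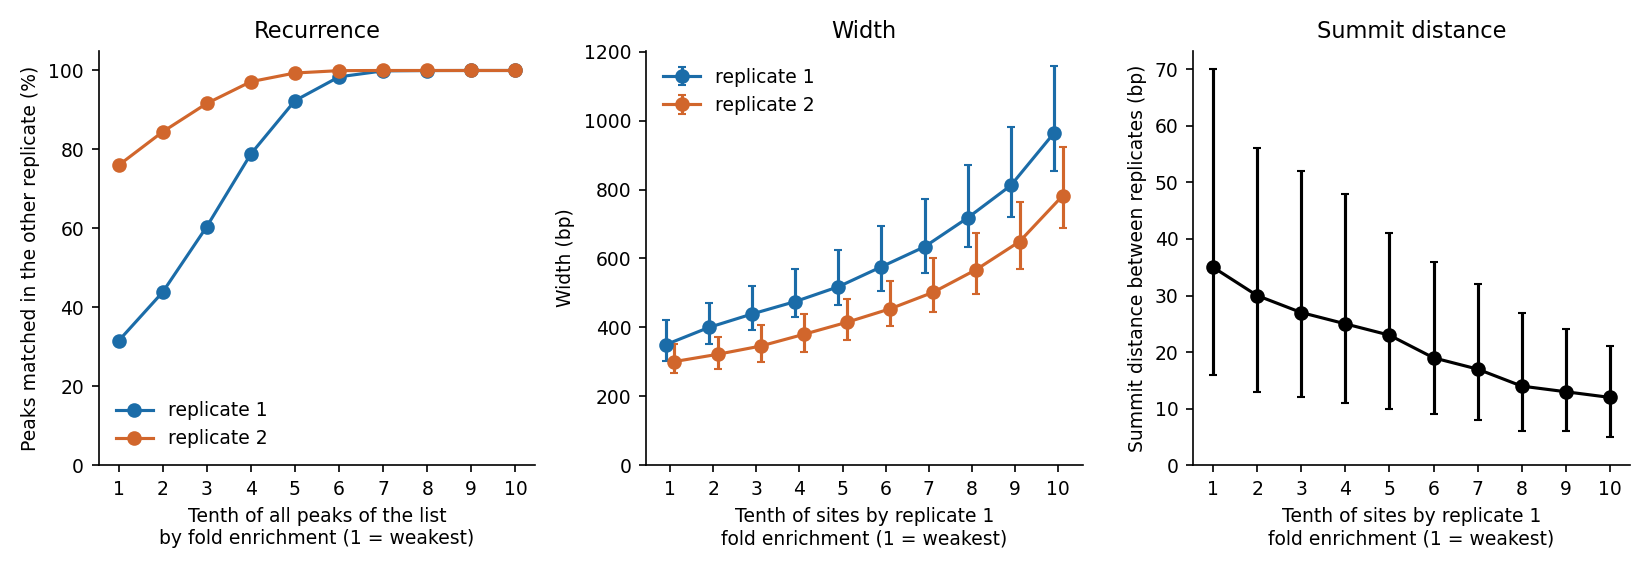
Left, share of all peaks (%) matched in the other replicate, in 10 groups of each list by fold enrichment; middle, width (bp) and, right, distance between the replicate summits (bp), in 10 groups of sites by replicate 1 fold enrichment. Points are shares on the left and medians elsewhere, with bars for the quartiles; recurrence and width are higher in the stronger groups and the summit distance is lower, from 35 bp in the weakest to 12 bp in the strongest.

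The 5 strongest sites, ranked by whichever of their 2 fold enrichments was the smaller, lay on 5 chromosomes. At the top stood a site of chromosome 9, from 42939018 to 42940424, that reached 48.4-fold enrichment in replicate 1 and 52.2-fold in replicate 2. It was 1407 and 1293 bp wide, and its summits lay 18 bp apart. On chromosome 13, the site from 20717864 to 20718876 had 47.5 and 57.3, widths of 1013 and 937 bp, and summits 23 bp apart. It was also the strongest site of chromosome 13, the densest chromosome.

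On chromosome 14, the site from 6718132 to 6719282 had 47.5 and 51.8, widths of 1151 and 874 bp, and its summit at base 6718709 in both replicates. On chromosome 15, the site from 22027473 to 22029016 had 47.4 and 50.5 and widths of 1544 and 1386 bp. Its summits, 4 bp apart, stood off the centre, at 31.0% and 28.2% of the width. On chromosome 11, the site from 2852518 to 2853902 had 46.7 and 70.4, widths of 1385 and 1310 bp, and summits at 35.6% and 34.6% of the width.

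The surroundings of these sites differed. The nearest other site lay 2517 bp away on chromosome 9, 3376 bp on chromosome 13, 3802 bp on chromosome 14 and 2032 bp on chromosome 11. The site on chromosome 15 stood alone, with 159102 bp to its nearest neighbour. The strongest site of chromosome 1, the sparsest chromosome, ran from 41586179 to 41587296, with fold enrichments of 45.2 and 45.4, and its nearest neighbour was 40727 bp away.

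Neighbouring sites were usually within 10000 bp of each other, with a long tail of empty stretches. On the 20 chromosomes the distance from summit to summit had a median of 6744 bp (quartiles 2743.5 and 16023.5 bp) and a mean of 19459.6 bp, well above the median. In the full lists, which hold more peaks, the median was 5265 bp in replicate 1 and 6041 bp in replicate 2. The closest sites were 365 bp apart, on chromosome 20 between summits at 47181490 and 47181855, and 33 of the 48679 distances were at most 500 bp. Distances over 100000 bp numbered 1486 (3.05% of all), yet they took up 40.9% of the length between the first and the last sites.

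For 31.9% of the placed sites another site lay within 2000 bp, and for 83.1% within 10000 bp, while 1033 sites (2.12%) stood over 50000 bp from any other. The sites with a neighbour within 2000 bp had median fold enrichments of 7.09 and 7.35 in replicates 1 and 2, and the isolated ones of 6.89 and 7.09. The isolated sites were the narrower, with median widths of 531 and 419 bp, against 571 and 447 bp. Both sets thus covered the same range of strength, with quartiles of 4.64 and 12.6 for sites with a near neighbour and of 4.59 and 12.5 for isolated sites in replicate 1.

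Sites whose neighbouring summits lay within 2000 bp were joined into chains. There were 5588 chains of 2 sites, 1066 of 3, 213 of 4 and 55 of 5 or more, and 33179 sites stood alone. The longest chain had 9 sites on chromosome 1 from 4010911 to 4022021, whose summits were 1081 to 1865 bp apart. Strong and weak sites stood side by side along it. The fold enrichments were 5.78, 22.4, 5.99, 3.40, 3.72, 3.75, 3.88, 16.5 and 4.16 in replicate 1, from left to right. In replicate 2 they were 12.4, 23.4, 10.6, 4.52, 4.90, 4.26, 2.91, 17.1 and 5.18. The second and the eighth sites were the highest in both replicates, and the summits of the replicates lay 3 to 19 bp apart along the whole chain.

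The next longest chain had 8 sites on chromosome 10 from 43747944 to 43759908, with summits 1105 to 1914 bp apart. It opened with a site of 40.7 and 55.2 in replicates 1 and 2 and held another of 30.4 in both, while its weakest site in replicate 1 had 3.37 and 5.46. Of the 2 chains of 7 sites, the one that spanned more, 7634 bp from first to last summit against 6235 bp, lay on chromosome 20 from 38302316 to 38310861. There 3 sites with fold enrichments of 17.5, 20.7 and 15.6 in replicate 1, and of 18.7, 25.5 and 25.1 in replicate 2, stood among 4 weaker ones. Within each of the chains on chromosomes 1, 10 and 20 the strongest site in replicate 1 was also the strongest in replicate 2.

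**Figure D4:**
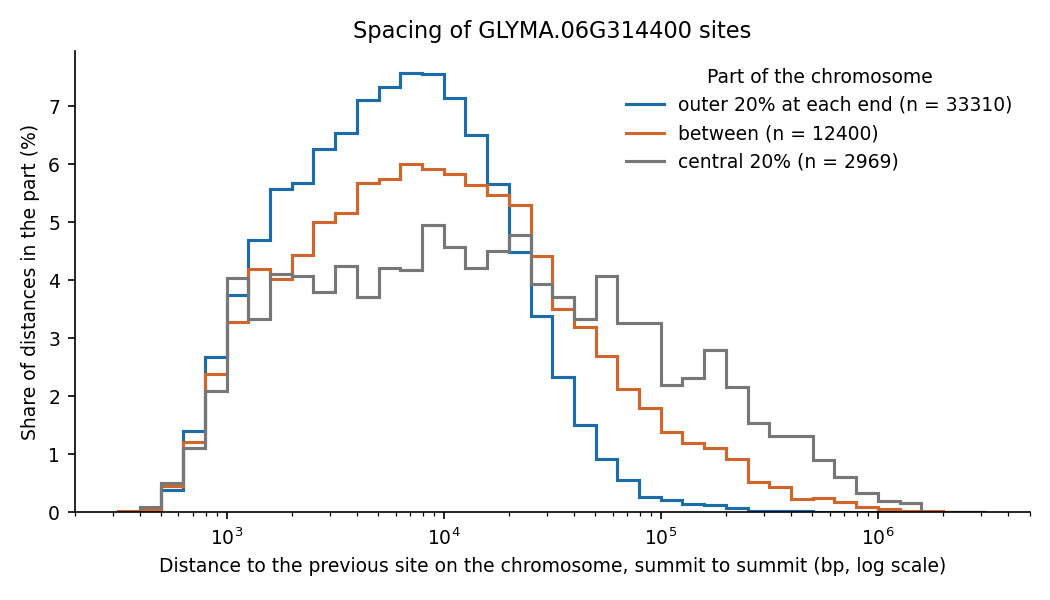
Distance from a site to the previous site on its chromosome (bp, log scale) against the share of distances (%) in the outer 20% at each end of the chromosomes, in the central 20% and in the part between. The curves begin at the same short distances, and the central part has a long shoulder above 100000 bp.

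The 3 longest empty stretches lay outside the outer 20% at each chromosome end. The fifth longest, of 1640687 bp, lay within the first 20% of chromosome 13. The longest distance between neighbouring sites was 2815150 bp, on chromosome 10 from 13791711 to 16606861, and that stretch held 1 unmatched peak of replicate 1 and 3 of replicate 2. On chromosome 6 the stretch from 30990898 to 32862639, of 1871741 bp, held 0 replicate 1 peaks and 1 of replicate 2. On chromosome 20 the stretch from 14774895 to 16566991, of 1792096 bp, held 1 peak in each list. These stretches were almost empty in both lists before the rule was applied. Whether reads could be placed there was not tested.

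Sites were dense towards the chromosome ends and sparse in the middle. Chromosome length was taken as the furthest peak end in any of the 4 lists, 948.6 Mb over the 20 chromosomes, of which sites covered 3.35%. The outer 20% at each end, 40% of the length, held 68.4% of the 48699 placed sites, and the central 20% held 6.10%. The full lists gave 68.2% and 68.5% for the outer parts and 6.19% and 6.13% for the central part in replicates 1 and 2, so both replicates showed the same profile. In steps of 5% of the length, density fell from 100.9 sites per Mb in the first step to 12.4 in the step from 50 to 55%, and rose again to 103.6 in the last. These steps pool the 20 chromosomes, and chromosome 13 alone held 202 of the 588 sites in the step from 50 to 55%. The remaining 269 sites lay on 50 scaffolds, 93 of them on a single one, with median fold enrichments of 7.79 and 8.11 in replicates 1 and 2.

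Density changed along the chromosome but the sites themselves hardly did. Median fold enrichments in replicates 1 and 2 were 7.39 and 7.65 in the outer parts, 7.36 and 7.66 in the parts between, and 7.51 and 7.78 in the central part. Median replicate 1 widths were 580, 569 and 571 bp, and median summit distances 20, 19 and 20 bp. The share of replicate 1 peaks that were sites was 80.8% in the outer parts and 79.4% in the central part. The median distance to the previous site, in contrast, was 6014.5 bp in the outer parts, 8717.5 bp between and 13295 bp in the central part. Even so, 28.2% of central sites had a neighbour within 2000 bp, against 33.5% of outer sites. All central values here pool the 20 chromosomes, among them chromosome 13, whose central steps held 68.1 to 137.9 sites per Mb. That chromosome was not set apart, so these values describe the pool and not the sparse middle of the others. Whether close pairs were as frequent there was not tested.

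Chromosomes differed in density and in which side of the midpoint held more sites. The number of sites ran from 1695 on chromosome 16 to 3455 on chromosome 13, with 51.98 ± 9.95 sites per Mb (SD over 20 chromosomes). Chromosome 13 was the densest at 75.4 sites per Mb, from 94.3 peaks per Mb in replicate 1 and 82.1 in replicate 2, followed by chromosome 11 at 68.8 and chromosome 17 at 64.3. Chromosome 1 was the sparsest at 39.86, next to chromosome 18 at 39.88. The share of replicate 1 peaks that were sites was between 79.0% and 82.1% on every one of the 20 chromosomes. Median fold enrichment per chromosome ran from 7.11 to 7.65 in replicate 1 and from 7.27 to 8.06 in replicate 2.

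On chromosomes 15 and 6, 78.3% and 76.5% of the sites lay in the part of the chromosome before its midpoint. On chromosomes 20 and 19 this was 20.2% and 20.8%. The sparsest step of 5%, the first where steps tied, lay between 30 and 70% of the length on 17 of 20 chromosomes. On chromosomes 3 and 14 tied steps lay both inside and outside that range. The sparsest step held 3 sites on chromosome 6, between 60 and 65%, and at most 14 on any chromosome. The densest step was on chromosome 11 between 10 and 15%, with 284 sites at 164.0 per Mb. Within chromosomes, the fullest step was the first or the last on 3 of 20 and lay further inside on the other 17. Whether the density of sites follows that of genes was not tested.

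Chromosome 13 had another profile. The outer parts held 34.4% of its sites, against 58.9 to 85.6% on the other 19, and the first 20% held 2.03%. Its sparsest step lay between 15 and 20% of the length, with 6 sites. The central 20% held 25.5% of its sites, against at most 7.78% elsewhere, and its fullest step, with 316 sites, lay between 45 and 50%. Density then stayed between 73.8 and 131.8 sites per Mb from the midpoint to the end. Sites on chromosome 13 were otherwise ordinary, with median fold enrichments of 7.61 and 7.84 and median widths of 581 and 458 bp in replicates 1 and 2.

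**Figure D5:**
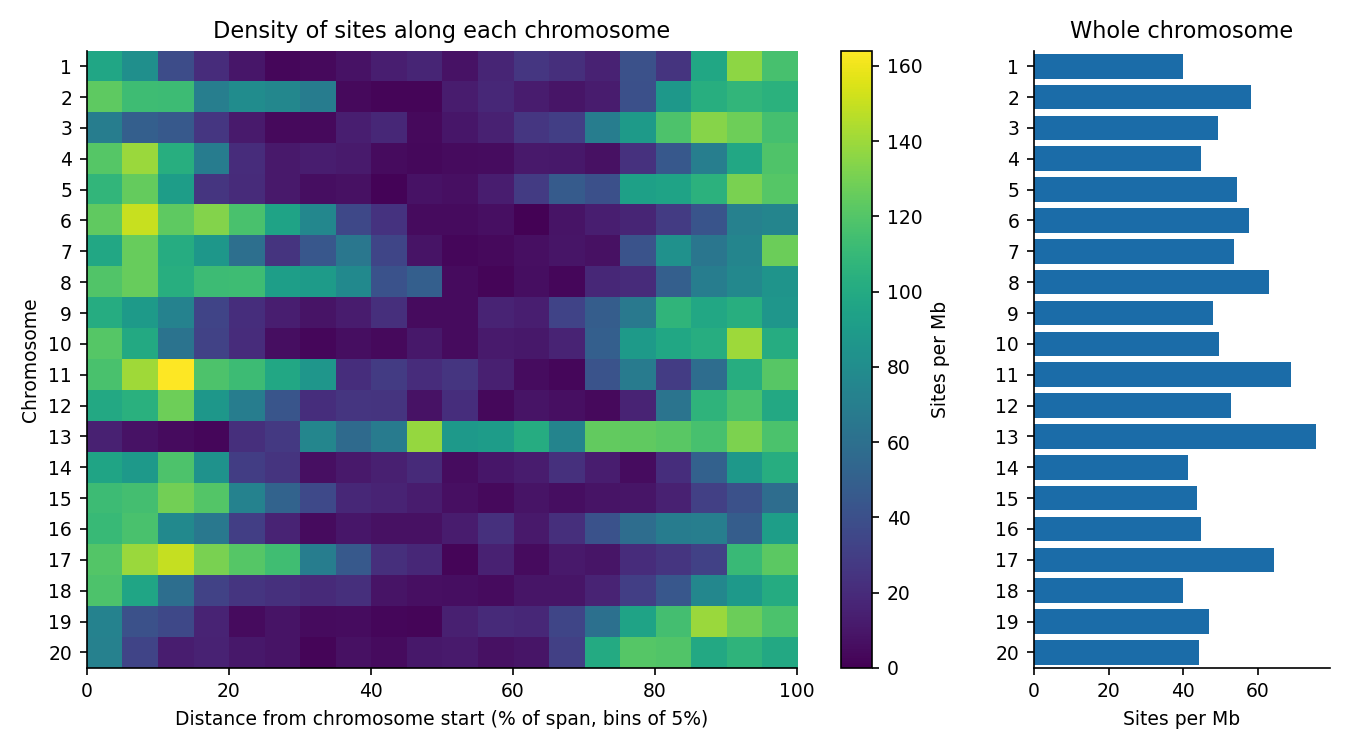
Left, density of sites (sites per Mb, colour) along each of the 20 chromosomes in steps of 5% of its span from the start; right, sites per Mb over the whole chromosome. The outer 20% at each end hold over 40% of the sites on 19 chromosomes, while chromosome 13 is sparse in its first 20% and dense from its midpoint to its end.

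Windows of 1 Mb gave the same contrast in single regions. Of 956 windows, 9 held no site, the median was 31 sites and the fullest 95 windows held 26.1% of the placed sites, while the emptiest 478 held 11.98%. The fullest was on chromosome 6 from 3000001 to 4000000, with 169 sites from 203 peaks in replicate 1 and 180 in replicate 2. Next came chromosome 11 from 3000001 to 4000000, with 163 sites from 192 and 178 peaks. The window of chromosome 15 between 8000001 and 9000000 had 156 sites, from 184 and 165 peaks. That of chromosome 17 between 5000001 and 6000000 also had 156, from 180 and 171 peaks. Each of these windows had more peaks in replicate 1 than in replicate 2, as did the lists as a whole.

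Both GLYMA.06G314400 lists had wider peaks than either GLYMA.13G317000 list, but with 2 lists per protein the exact permutation test used here cannot pass a threshold of 0.05. The antibodies differed as well. For GLYMA.06G314400, 3 µg of antibody against residues 302 to 316 was used, and for GLYMA.13G317000, 2 µg against residues 1 to 15. Differences between the proteins therefore cannot be told apart from differences between the antibodies or their amounts. Over whole lists the median width was 512 and 436 bp in replicates 1 and 2 of GLYMA.06G314400, and 422 and 373 bp in those of GLYMA.13G317000. The means were 474 ± 53.7 bp and 397.5 ± 34.6 bp (SD, n = 2; exact permutation p = 0.333, two-sided, adjusted 0.5 over 3 measures, the smallest possible being 0.333). Peaks of at least 1000 bp made up 8.73% and 3.46% of the GLYMA.06G314400 lists and 3.05% and 1.05% of the GLYMA.13G317000 lists (exact permutation p = 0.333, two-sided, adjusted 0.5, n = 2). The outer chromosome parts held 68.3% ± 0.204 of the peaks with GLYMA.06G314400 and 68.5% ± 0.0991 with GLYMA.13G317000 (SD, n = 2; exact permutation p = 0.667, two-sided, adjusted 0.667). For the outer parts the values of the proteins overlapped narrowly, with 68.461% in replicate 2 of GLYMA.06G314400 and 68.458% in replicate 1 of GLYMA.13G317000.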

How the data were processed

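Bowtie 0.12.7, a read aligner, and MACS2, a peak caller, made the lists, per the submitters' processing notes. For the genome build, the MACS2 version, the control and duplicate reads, nothing is given in the sources used here. The authors deposited 1 list per precipitated sample. It holds peak positions and summit offsets in bp, a deposited fold enrichment (a ratio), a deposited −log10 p and −log10 q (lowest 2.00), and a deposited score, the whole part of 10 times −log10 q in all but 2 peaks of the GLYMA.06G314400 lists. The input samples have no list here. Read numbers are not given either. Depth is therefore unknown, and where a list has no peak, binding below its reach is possible.

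Peaks were matched, measured and counted with Python 3.11.15 and pandas 2.3.3. A site's partner was the replicate 2 peak with the largest overlap. Coordinates are counted from 1. The matching was tested on simulated intervals. The members, the measures and the rule for named regions (the strongest, widest, chained, emptiest and fullest, those nearest the limit, and the strongest of the densest and sparsest chromosomes) were chosen with earlier results of these data known. The gene table at hand, of 59048 genes, belongs to an assembly not shown to be that of the peaks, so no gene or sequence is named. The lists of both proteins were compared by an exact permutation test.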

Additional observations from a re-analysis of the deposited data

How the results depend on the processing

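Of the 8 alternatives run for the number of sites, those that matched the lists gave 46432 to 50541. The others took a whole list without matching, with 53281 peaks for replicate 2 and 60812 for replicate 1. With the replicates exchanged the median width was 448 bp and the median summit distance 21 bp. The summit distance was 19 bp with 50% of both peaks asked, 18 bp with summits within 100 bp, which bounds it by construction, 19 bp at a q of 1e-05 or less, and 20 bp with the nearest replicate 2 summit, an alternative chosen after the data were examined. Without replicate 1 or replicate 2, where the other list entered whole, the median width was 436 to 512 bp, the median spacing 5265 to 6041 bp and the outer share 68.2 to 68.5%, and no summit distance exists. Spacing from edge to edge was 6091 bp. The outer 10% at each end held 39.4% of sites and the outer 30% held 85.0%. Between the proteins, the replicate number as a block gave differences of 76.5 bp, 4.04 and −0.21 percentage points as before, with an exact permutation p of 0.5, the smallest possible with 2 pairs. The labels do not say what the number marks. With only peaks at a q of 1e-05 or less, the differences were 77.5 bp, 4.12 and −0.32 percentage points. The exact permutation p was 0.333 for each, the smallest possible with 2 lists per protein. At 34102 sites with a peak in all 4 lists, the log2 fold enrichment of replicate 1 minus replicate 2 correlated between the proteins with r = 0.490. When one list was left out, with no test, the width difference was 38.5 to 114.5 bp, that of wide peaks 1.41 to 6.68 and that of the outer share −0.36 to −0.07 percentage points. Having 2 lists per protein and unknown depth limits all comparisons, and the proteins also differed in antibody and antibody amount.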
